A study of Homo sapiens with 10 samples.

Results

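The expression of 10 serpin genes of liver origin (SERPINA1, SERPINA3, SERPINA4, SERPINA5, SERPINA6, SERPINA7, SERPINA10, SERPINA11, SERPINC1 and SERPIND1) was examined in HepG2 cells under endoplasmic reticulum (ER) stress. They were taken by symbol from a count table of 32738 genes. HepG2 is a human hepatoma cell line that keeps many traits of the hepatocyte, and all libraries come from this one line. Cells were either kept in regular growth medium (control) or exposed for 17 h to medium with 2 µg/ml tunicamycin, an inhibitor of N-linked glycosylation that causes ER stress. Each condition has 5 libraries, one from each of 5 experiments carried out on separate days, and transcripts were counted by 3′ mRNA sequencing. The comparison asks how the mRNA of each serpin differs between stressed and unstressed cells.

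Serpins are a family of proteins with a shared fold, most of which trap a serine protease by offering it a loop that the protease cuts and is then held by. The liver secretes many of them into plasma, where they restrain clotting, kinin release and tissue breakdown, and some have lost the inhibitory function and carry hormones instead. The secreted members enter the ER, receive N-linked glycans and fold there, so that tunicamycin acts on a modification these proteins normally carry.

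Of the 10 genes, 6 were expressed at a lower level in tunicamycin-treated cells (SERPINA4, SERPINA5, SERPINA6, SERPINA7, SERPINA11 and SERPIND1), by 1.82-fold for SERPINA6 up to 5.13-fold for SERPINA11. SERPINC1, which encodes antithrombin, rose 2.93-fold. SERPINA1 and SERPINA10 did not pass the test, and SERPINA3 had 1 count in all libraries together and was not tested. Calls were made at an adjusted p under 0.05 (edgeR's quasi-likelihood test, Benjamini-Hochberg adjustment over the 12733 genes tested). By the same rule 16.6% of all tested genes were lower and 17.6% were higher. The control and tunicamycin libraries did not overlap for the same 6 lower genes and for SERPINC1, while over all tested genes 11.9% were lower and 11.7% higher without overlap. The median log2 fold change of the 9 tested serpins was -1.50, against -0.00 over all tested genes, 5% of which lay below -1.01. In cultures measured in bulk, fewer cells of a type and less RNA per cell cannot be told apart.

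**Figure D1:**
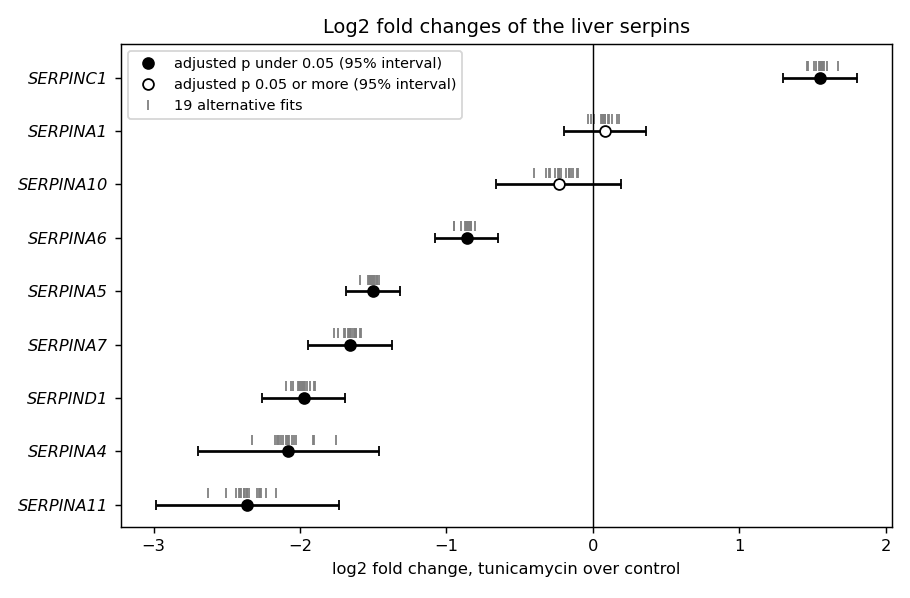
Log2 fold change (tunicamycin over control) of the 9 tested serpins on the horizontal axis, with points for the estimate, bars for its 95% interval and grey ticks for 19 other ways of fitting the data. The 6 serpins from SERPINA6 to SERPINA11 lie below 0 with every tick, SERPINC1 lies above 0 with every tick, and the intervals of SERPINA1 and SERPINA10 include 0.

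The libraries held 4242538 to 4888292 counts in control cells and 2234682 to 5029864 in treated cells, where replicate 5 was the shallowest. Mitochondrially encoded transcripts took 22.7 to 25.2% of the counts in control and 18.3 to 28.8% in tunicamycin libraries. The hepatocyte markers used to check the cell line were all expressed, and albumin (ALB) had 11214 ± 1761 normalized counts (counts scaled to a common library size) in control and 11519 ± 1676 in treated cells (mean ± SD, n = 5). ALB changed least of the 7 hepatocyte markers, of which 5 were lower in treated cells, TTR the most (log2 fold change -1.02). Markers of other cell types were near zero for fibroblasts (COL1A1 with 5 counts and COL3A1 with 2 counts in all libraries together) and at 0 for leukocytes (PTPRC), and PECAM1 was not analysed here. CD68, used as a macrophage marker, had 27.8 ± 7.35 and 15.6 ± 6.61 normalized counts (log2 fold change -0.83, adjusted p = 0.0319, edgeR). Its part in the results was not tested.

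In GRCh38 (GENCODE release 44, matched by Ensembl gene ID) 7 of the 10 genes lie within 343.6 kb on chromosome 14. Their order is SERPINA10 (chr14:94280460-94293268), SERPINA6 (chr14:94304248-94323389), SERPINA1 (chr14:94376747-94390693) and SERPINA11 (chr14:94442464-94452800) on the minus strand, followed by SERPINA4 (chr14:94561442-94569913), SERPINA5 (chr14:94561442-94593118) and SERPINA3 (chr14:94612384-94624055) on the plus strand. SERPINC1 lies on chromosome 1 (chr1:173903800-173917327, minus strand), SERPIND1 on chromosome 22 (chr22:20774113-20787720, plus strand) and SERPINA7 on the X chromosome (chrX:106032435-106038727, minus strand). SERPIND1 sits inside PI4KA on the opposite strand and shares no exon with it. SERPINA11 likewise sits inside another gene on the opposite strand without a shared exon. SERPINA4 lies within the limits of SERPINA5 and shares exon sequence with read-through transcripts of it. For each gene but SERPINA3, the last 500 bases of the main transcript overlap no exon of another gene. Those of SERPINA3 overlap exon sequence of another gene on its strand. SERPINA5 shares exon sequence with that same gene, but not in its last 500 bases.

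Proximal promoters were searched for letters tied to the ER stress response, because 6 of the genes moved in the same direction. RefSeq promoter windows (GRCh38.p14, 250 bases before to 50 after a start) were found for 9 of the 10 genes, all but SERPINC1, with 11 windows in all. The C/EBP-ATF composite TGATGNAAN, to which ATF4 with a C/EBP partner can bind, was found on either strand in 3.61% of 35116 promoter windows of this length and in SERPINA6 alone among the 9 genes with a window. The ER stress response element, which is CCAAT, 9 bases of any kind and CCACG, was present in 0.0769% of all windows and in none of these 11. In the SERPINA6 stretch, read 5′ to 3′ on the strand of the gene and shown because it holds the only match, the composite is in capitals and begins 234 bases upstream of the start.
SERPINA6 (chr14:94323550-94323582, minus): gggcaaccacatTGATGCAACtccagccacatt

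A match is a description of the sequence, and binding was not measured. The windows of SERPINA4, SERPINA5, SERPINA7, SERPINA11 and SERPIND1, also lower, did not hold the composite. It was also absent from the windows of SERPINA1, SERPINA3 and SERPINA10. SERPINC1 had no window, and a part of the composite in these changes was not tested.

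Of the 4 serpins that restrain clotting proteases, SERPINC1 rose, SERPIND1 and SERPINA5 fell, and SERPINA10 did not pass the test. SERPINC1 encodes antithrombin, which inhibits thrombin and factor Xa and is activated by heparin. Its normalized counts were 160.1, 199, 219, 215 and 289 in control replicates 1 to 5, and 626, 627, 587, 714 and 611 in the matching tunicamycin replicates. Every treated library was above every control library. The mean was 216 ± 46.7 in control and 633 ± 48.3 in treated cells, and the log2 fold change was 1.55 (SE 0.12, 95% interval 1.30 to 1.81, adjusted p = 1.36e-08). Of all tested genes, 97.8% had a lower log2 fold change.

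SERPIND1 encodes heparin cofactor II, another heparin-activated inhibitor of thrombin. It had 236, 205, 245, 199.8 and 227 normalized counts in the control replicates and 67.6, 45.6, 60.5, 43.96 and 64.6 in the tunicamycin replicates. The groups were far apart, with the lowest control library well above the highest treated one. The level fell 3.93-fold, from 222 ± 19.5 to 56.4 ± 10.9 (log2 fold change -1.98, SE 0.14, adjusted p = 2.15e-09).

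Both genes were thus at a like level in control cells and far apart in treated cells. The ratio of SERPINC1 to SERPIND1 counts within a library, which does not depend on library scaling, lay between 0.679 and 1.27 in control and between 9.26 and 16.3 in tunicamycin libraries. The mean log2 ratio differed by 3.55 between the conditions (-0.06 ± 0.34 and 3.49 ± 0.37, n = 5, exact permutation test, two-sided p = 0.00794, adjusted p = 0.00992 over the 5 ratios computed). This p is the smallest that 5 against 5 libraries allow. It follows from the separation of both genes in opposite directions and adds no support beyond their fold changes. With the replicate numbers as pairs, the sign-flip permutation test of 5 pairs cannot go below 0.0625 (adjusted p = 0.0781).

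SERPINA5 encodes the protein C inhibitor, which acts on activated protein C and on several other proteases. In control replicates 1 to 5 it had 2186, 1962, 2102, 1896 and 2328 normalized counts, the highest mean level of the 10 serpins, and in tunicamycin replicates 678, 693, 765, 782 and 781. The treated libraries lay close together and all below the control libraries. The fall was 2.83-fold, from 2095 ± 173 to 739.7 ± 50.3 (log2 fold change -1.50, SE 0.09, adjusted p = 2.52e-10).

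SERPINA10 encodes the protein Z-dependent protease inhibitor, which inhibits factor Xa. Its normalized counts were 56.8, 91.8, 125, 147 and 142 in control and 76.0, 104, 91.6, 114 and 94.8 in treated replicates. The treated values all fell inside the control range, being below their own control in 3 pairs and above it in 2 pairs. The log2 fold change was -0.23 (SE 0.20, 95% interval -0.66 to 0.20, adjusted p = 0.407), and the interval includes 0. Control replicate 1 was the lowest library for SERPINA10, and without it the log2 fold change was -0.40 (adjusted p = 0.0513, edgeR). The value was smaller without control replicate 4 (-0.11), control replicate 5 (-0.14) or tunicamycin replicate 1 (-0.15) and after thinning to the smallest library (-0.10), and it passed in none of these fits.

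**Figure D2:**
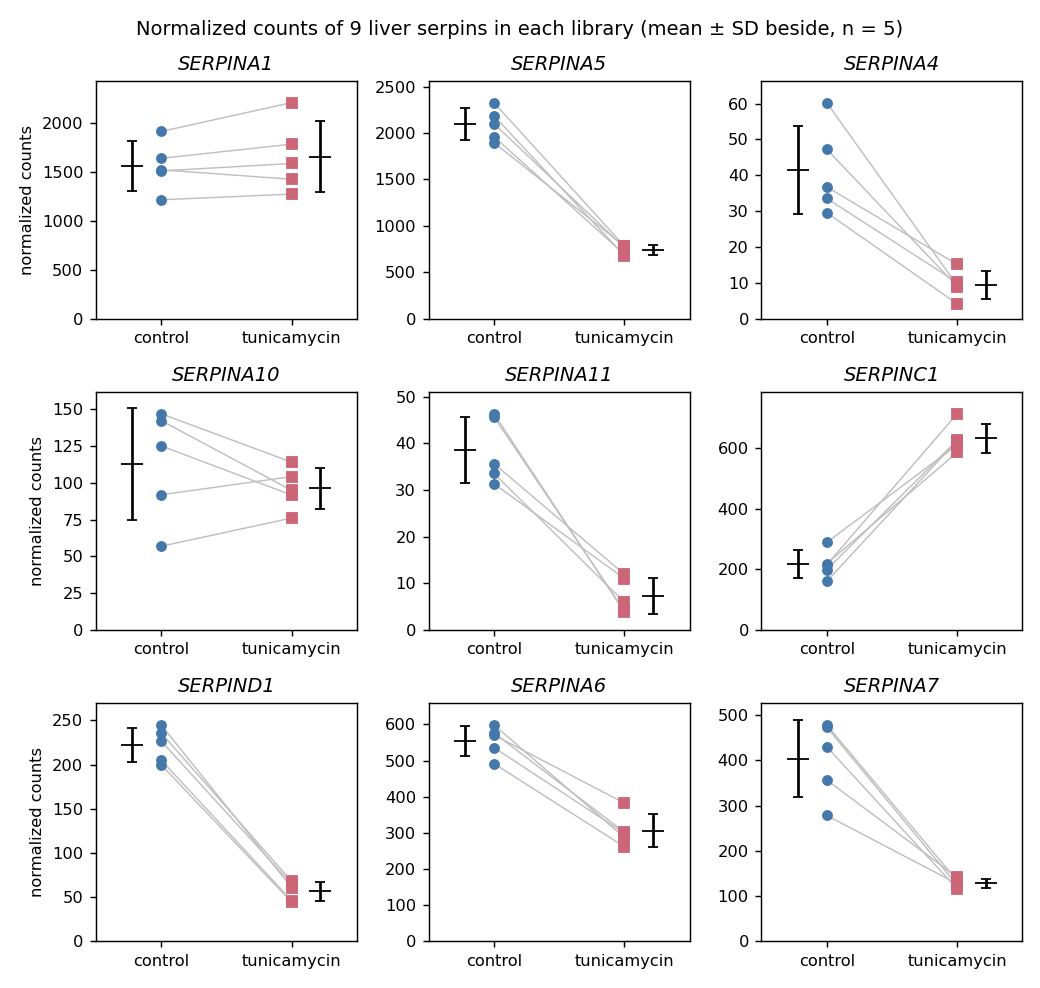
Normalized counts (vertical axis, from 0) of the 9 tested serpins in control (blue circles) and tunicamycin (red squares) libraries, with grey lines joining the 2 libraries of an experiment and bars for the mean ± SD (n = 5). The groups do not overlap for SERPINA5, SERPINA4, SERPINA11, SERPIND1, SERPINA6 and SERPINA7, which fall, and for SERPINC1, which rises, while they overlap for SERPINA1 and SERPINA10.

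Both hormone carriers fell. SERPINA7 encodes thyroxine-binding globulin, the main plasma carrier of thyroid hormone. It had 278, 357, 430, 474 and 479 normalized counts in control replicates 1 to 5 and 127, 141, 115, 124 and 133 in the matching tunicamycin replicates. Control replicate 1 was the lowest of its group but stayed above all treated libraries, which differed little from each other. The level fell 3.16-fold, from 404 ± 85.6 to 128 ± 9.71 (log2 fold change -1.66, SE 0.14, adjusted p = 2.93e-08).

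SERPINA6 encodes corticosteroid-binding globulin, the plasma carrier of cortisol. The control replicates had 491, 536, 577, 571 and 599 normalized counts, and the tunicamycin replicates had 261, 299, 301, 382 and 287. Tunicamycin replicate 4 was the highest treated library and still below every control. The level fell 1.82-fold, from 555 ± 41.9 to 306 ± 45.4 (log2 fold change -0.86, SE 0.10, adjusted p = 2.85e-06), the smallest of the 6 decreases.

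SERPINA7 fell more than SERPINA6. The SERPINA6 to SERPINA7 ratio within a library was 1.20 to 1.77 in control and 2.06 to 3.09 in treated cells, and its mean log2 rose by 0.76 (exact permutation test over 5 and 5 libraries, two-sided p = 0.00794, adjusted p = 0.00992, and 0.0781 by the paired sign flips). SERPINA6 also fell relative to SERPINA10, its neighbour in the cluster. Their log2 ratio was 2.37 ± 0.46 in control and 1.66 ± 0.11 in tunicamycin libraries, a difference of -0.71 (exact permutation test, n = 5, adjusted p = 0.00992, and 0.0781 by the paired sign flips).

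The remaining serpins of chromosome 14 covered the widest range of levels. SERPINA1 encodes alpha-1-antitrypsin, the main plasma inhibitor of neutrophil elastase. In control replicates 1 to 5 it had 1213, 1507, 1518, 1909 and 1635 normalized counts, and in treated replicates 1270.3, 1583, 1422, 2204 and 1779.7. The groups overlapped over most of their range, and the treated library was higher in 4 pairs and lower in 1 pair. The mean was 1557 ± 251 in control and 1652 ± 362 in treated cells, with a log2 fold change of 0.08 (SE 0.13, 95% interval -0.20 to 0.37, adjusted p = 0.672). The sign of this difference turned with library size alone as the scaling, at -0.012, and without tunicamycin replicate 4, at -0.036.

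SERPINA1 and SERPINA10 shared their extreme libraries, both being lowest in replicate 1 and highest in replicate 4 in control as well as in treated cells. SERPINC1, SERPINA6 and SERPINA7 were also lowest in control replicate 1, whereas SERPINA4 was highest in that library. In treated cells SERPINA5 and SERPINA6 were also lowest in replicate 1, and SERPINA5, SERPINA6 and SERPINC1 also highest in replicate 4. This is a description of 10 libraries, without a test.

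SERPINA3 encodes alpha-1-antichymotrypsin, an acute phase inhibitor of cathepsin G. It had 1 count in control replicate 1 and 0 counts in the other 9 libraries, where 0 allows up to 3 counts in a library, or 2.53 to 6.05 normalized counts in the treated libraries. The last 500 bases of its main transcript overlap another gene on the same strand. Whether reads there went uncounted was not tested, so the bound covers assigned reads only. No fold change is given, and the planned ratio to SERPINA1 was not computed.

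SERPINA4 encodes kallistatin, an inhibitor of tissue kallikrein. It had 60.3, 47.3, 36.7, 29.6 and 33.5 normalized counts in the control replicates and 9.29, 8.93, 15.1, 4.12 and 10.1 in the tunicamycin replicates. The lowest control library was above the highest treated one, so the groups did not overlap despite low counts. The level fell 4.23-fold, from 41.5 ± 12.4 to 9.51 ± 3.91 (log2 fold change -2.08, SE 0.29, 95% interval -2.70 to -1.46, adjusted p = 2.15e-05).

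The decrease of SERPINA4 could not be told from that of its neighbour SERPINA5. The log2 ratio of SERPINA4 to SERPINA5 was -5.69 ± 0.40 in control and -6.29 ± 0.64 in treated libraries, which overlapped, and the difference of -0.60 did not pass (exact permutation test, n = 5, adjusted p = 0.103). Without tunicamycin replicate 3 it was -0.77 and passed (exact permutation test, adjusted p = 0.0159).

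SERPINA11 had 33.6, 35.7, 46.4, 31.4 and 45.7 normalized counts in control replicates 1 to 5 and 5.91, 11.9, 3.78, 10.99 and 4.04 in the matching tunicamycin replicates. The treated values rest on only 7, 12, 4, 8 and 2 reads, yet all lie well below the control values. The level fell 5.13-fold, from 38.5 ± 7.03 to 7.32 ± 3.87 (log2 fold change -2.36, SE 0.30, 95% interval -2.99 to -1.73, adjusted p = 6.06e-06). Only 0.259% of all tested genes had a lower log2 fold change. SERPINA11 lies next to SERPINA1, and the log2 ratio of SERPINA1 to SERPINA11 was 5.32 ± 0.35 in control and 7.81 ± 0.61 in treated libraries, a difference of 2.49 (exact permutation test, n = 5, adjusted p = 0.00992, and 0.0781 by the paired sign flips). This separation largely follows from the fall of SERPINA11 and adds no support beyond its fold change.

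**Figure D3:**
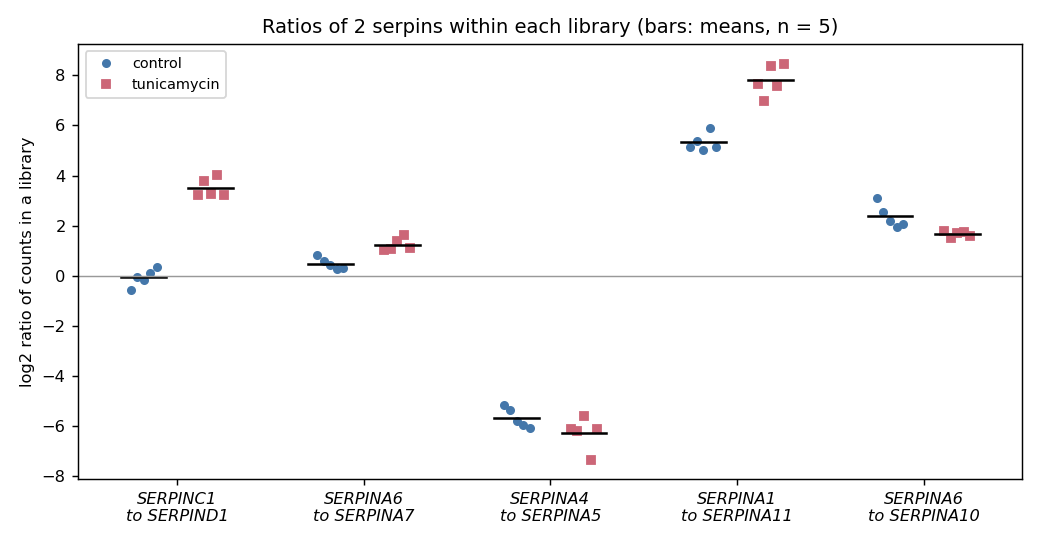
Log2 ratio of the counts of a pair of serpins in each library (vertical axis), with circles for control, squares for tunicamycin and bars for the means (n = 5). The conditions separate fully for SERPINC1 to SERPIND1, SERPINA6 to SERPINA7, SERPINA1 to SERPINA11 and SERPINA6 to SERPINA10, and overlap for SERPINA4 to SERPINA5.

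Because 3′ sequencing gives about 1 read per transcript, normalized counts of different genes were compared without division by length. In control cells the order of mean levels was SERPINA5, SERPINA1, SERPINA6, SERPINA7, SERPIND1, SERPINC1, SERPINA10, SERPINA4, SERPINA11 and SERPINA3. The ranges over libraries overlapped between SERPINA5 and SERPINA1, SERPIND1 and SERPINC1, SERPINA10 and SERPINA4, and SERPINA4 and SERPINA11. In treated cells SERPINA1 was first, above SERPINA5 without overlap, and SERPINC1 followed with a range that overlapped that of SERPINA5. SERPINA6, SERPINA7, SERPINA10 and SERPIND1 came next without overlap between neighbours, and SERPINA4 and SERPINA11, which overlapped, came before SERPINA3. In both orders the place of SERPINA3 covers assigned reads only. It had 1 count in all libraries together, and its transcript end overlaps another gene.

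Counts of the 10 genes made up 0.112 to 0.134% of all counts in control and 0.0735 to 0.0893% in tunicamycin libraries. Within this sum SERPINA5 went from 40.1 ± 4.16% to 20.6 ± 1.89% and SERPINA1 went from 29.6 ± 3.41% to 45.1 ± 3.85%, although the level of SERPINA1 itself did not pass the test. SERPINC1 went from 4.09 ± 0.578% to 17.6 ± 1.55%, while SERPIND1 went from 4.27 ± 0.542% to 1.60 ± 0.452%. For these 4 genes the shares in the 2 conditions did not overlap, and since shares sum to the whole, they are not independent of each other.

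**Figure D4:**
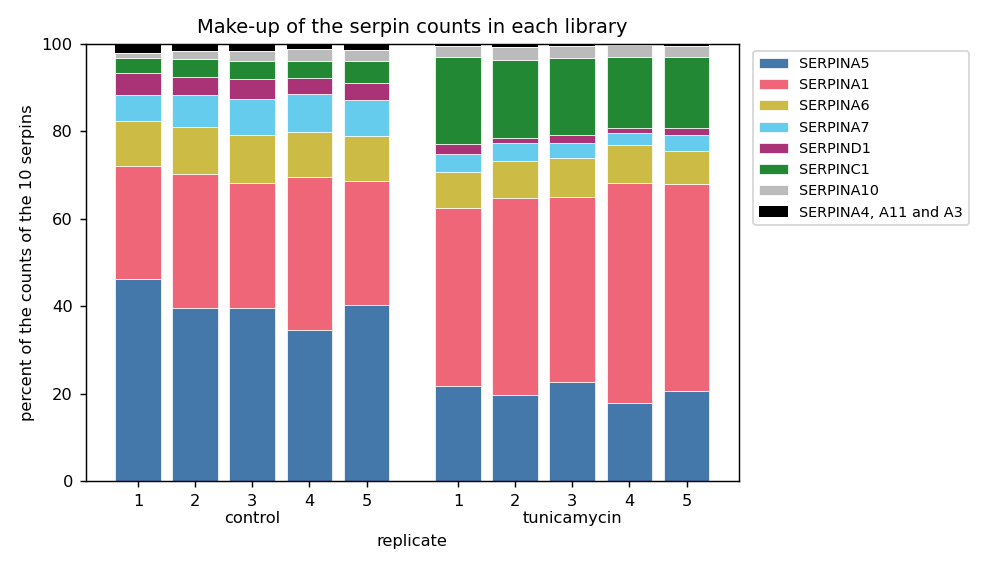
Share of each serpin in the counts of the 10 serpins (percent, vertical axis) for control and tunicamycin replicates 1 to 5. SERPINA5 is the largest share in 4 of 5 control libraries and SERPINA1 the largest in every tunicamycin library, where SERPINC1 takes 16.2 to 20.1%.

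Along chromosome 14 the changes differed in size, and the serpins and flanking genes that passed the test all fell. SERPINA10 and SERPINA1, which did not pass the test, alternate with SERPINA6 and SERPINA11, which fell, and SERPINA4 and SERPINA5 further along also fell. SERPINA9 had 0 counts and SERPINA12 had 1 count in all libraries together. Of 11 genes flanking the serpins, 10 were tested, 2 of them fell and 8 did not pass, with a median log2 fold change of -0.29. CLMN was at -0.73 (adjusted p = 1.76e-05) and DICER1, which encodes the ribonuclease that cuts microRNA precursors, at -0.30 (adjusted p = 0.0353, edgeR for both). The flanking genes that did not pass were ASB2 at 1.11, OTUB2 at 0.11, PPP4R4 at 0.17, DDX24 at -0.15, IFI27L1 at -0.28, SYNE3 at -0.32, IFI27L2 at -0.37 and IFI27 at -0.40 on the log2 scale. GSC had 0 counts.

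The encoded proteins are 405 (SERPINA6) to 499 (SERPIND1) residues long and hold 3 to 6 sequons, the sites at which N-linked glycans can be added (N, any residue but P, then S or T). Of the 6 genes that fell, SERPINA5 and SERPIND1 encode 3 sequons, SERPINA4, SERPINA7 and SERPINA11 encode 4, and SERPINA6 encodes 6. SERPINC1, which rose, encodes 4 sequons, and SERPINA1 and SERPINA10, which did not pass, encode 3 and 4. The number of sequons thus overlapped between lower, higher and uncalled genes. Identity of the closest pair, SERPINA3 and SERPINA5, was 47.7% of aligned residues, and that of SERPINC1 and SERPIND1 was 32.2%.

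Among 24 other serpin genes in the table, 11 had 0 counts and 10 were tested. Of these, 4 rose, 2 fell and 4 did not pass, with a median log2 fold change of 0.20. SERPINB8, an intracellular serpin, rose from 4.67 ± 3.15 to 39.3 ± 11.5 normalized counts (log2 fold change 3.04). SERPINE2, or protease nexin 1, rose by 1.59 on the log2 scale. SERPINF2, which encodes the plasmin inhibitor alpha-2-antiplasmin made in the liver, was at -0.85. AGT (angiotensinogen) at -0.75 and the collagen chaperone SERPINH1 at 0.48 also passed and were named after their values were seen.

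The next list held proteases and cofactors that these serpins act on or with. Of its 22 genes, 10 had 0 counts and 11 were tested, of which 1 rose and 4 fell, with a median log2 fold change of -0.16. F11 (factor XI) was at -0.86, PROS1 (protein S, the cofactor of activated protein C) at -0.60, F10 (factor X) at -0.54 and F7 (factor VII) at 0.57. PROZ, the cofactor of the SERPINA10 product, fell by 1.25 on the log2 scale at under 20 normalized counts (adjusted p = 0.0158, edgeR). F2 (prothrombin), whose product thrombin is the target shared by the SERPINC1 and SERPIND1 products, was at -0.16 (2725 ± 174 and 2438 ± 122 normalized counts, adjusted p = 0.13, edgeR), and PROC (protein C) was at -0.15 (adjusted p = 0.234, edgeR). PROZ, F2 and PROC were named after their values were seen.

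Genes for the folding, transport and disposal of proteins in the ER, serpins among them, rose almost without exception. Of 21 genes, 20 were tested, of which 19 rose and 1 did not pass, with a median log2 fold change of 1.12. The chaperones HSPA5 (BiP) and HSP90B1 (GRP94) rose by 2.97 and 2.72 on the log2 scale. SEL1L, the scaffold of an ER ubiquitin ligase complex, and EDEM1, which directs misfolded glycoproteins to degradation, rose by 2.31 and 2.30. The one tested gene that did not pass was MAN1B1 at -0.14.

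Of 18 liver transcription factors and cytokine signalling genes, all were tested, 2 rose, 6 fell and 10 did not pass, with a median log2 fold change of 0.02. IL1R1, the interleukin-1 receptor, was at -1.54, and STAT3, which relays interleukin-6 signals to acute phase genes, was at -0.62. CEBPB rose by 1.53 on the log2 scale. The other gene that rose, FOXA2, named after its value was seen, was at 0.49.

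The fall of the serpins was set beside that of other secreted liver proteins. Of 7 hepatocyte markers, 5 fell and 2 did not pass, with a median log2 fold change of -0.76. The transport protein TTR was at -1.02, APOA1 and APOB of lipoproteins at -0.91 and -0.78, and the fibrinogen chain FGB at -0.76. The log2 fold changes of SERPINA5, SERPINA7, SERPIND1, SERPINA4 and SERPINA11 were each below that of TTR, a difference that was not tested. TF (transferrin) was at -0.38, and the 2 that did not pass were ALB at 0.04 and AFP at -0.16.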

How the data were processed

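Total RNA of HepG2 cells was made into libraries with a 3′ kit (QuantSeq FWD). The authors processed the reads with the nf-core RNA-Seq pipeline 1.4.2 on hg19 with Ensembl release 87, and deposited raw counts per gene without a filter. The aligner, the counting program and the strand setting are not given in the sources used here. Library totals were 2234682 to 5029864 counts. All 10 sample columns were matched to libraries by name.

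From these counts, genes were filtered with filterByExpr (minimum count 2, minimum total 10), scaled by TMM and tested with edgeR 4.0.16 (R 4.3.3, quasi-likelihood) with condition as the only term. The Benjamini-Hochberg adjustment ran over 12733 genes. The SE is the absolute log2 fold change divided by the square root of F. P-values measure the spread between libraries of 1 cell line on 5 days.

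Replicate numbers stand for experiments on separate days according to the series text, and so pair the libraries. Deviations of paired libraries from their group means correlated at 0.360, 0.0197, 0.0764, 0.162 and 0.137 for replicates 1 to 5 (Pearson's r across 9707 genes, which are not independent). Control replicates 2 and 5 correlated more with tunicamycin replicates 1 and 4 than with their own partners. Ratios within libraries used a pseudocount of 0.5 and an exact permutation test over 252 assignments, adjusted over 5 of 6 planned ratios.

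Gene positions, protein lengths and sequons came from GENCODE release 44 on GRCh38, by Ensembl ID, in place of RefSeq proteins. No hg19 coordinate was used. Promoter sequences are from RefSeq. The serpins and all gene lists were chosen with earlier results of these data known. Besides all 10 serpins and all tested flanking genes, the text names the 4 genes of each list with the largest absolute log2 fold change among those with an adjusted p under 0.05 and at least 20 normalized counts on average. SERPINA2 and SERPINA13P were not analysed here, and results for some listed genes are not reported here. The alternatives were DESeq2 1.42.0, its size factors in edgeR, library size only, no filter, default filter minimums (10 and 15), the replicate block in both tools, thinning to the smallest library, removal of mitochondrial genes and leaving out each library.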

Additional observations from a re-analysis of the deposited data

How the results depend on the processing

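Under all 19 alternatives, 6 of the serpins were called lower and 1 was called higher. The replicate block, which treats the experiments as pairs, changed no call of the 10 serpins (SERPINC1 log2 fold change 1.57, SERPINA1 0.07, SERPINA10 -0.17), while 5 rather than 4 of the other serpins and 3 rather than 2 of the liver regulators were then higher. The sign of SERPINA1 turned under 2 alternatives, library size only (-0.012, adjusted p = 0.953) and leaving out tunicamycin replicate 4 (-0.036), and with 1 library left out it ranged from -0.036 to 0.18. For the ratios, the paired sign-flip permutation test gives p = 0.0625 at best, and SERPINC1 to SERPIND1 (3.55), SERPINA6 to SERPINA7 (0.76), SERPINA1 to SERPINA11 (2.49) and SERPINA6 to SERPINA10 (-0.71) then had an adjusted p = 0.0781. SERPINA4 to SERPINA5 ranged from -0.77 to -0.33 with 1 library left out, passed without tunicamycin replicate 3, and was -0.29 after thinning. Over all genes, 51.4% of 4353 calls were higher, and 40.8% with library size only, where the median log2 fold change was -0.08. Depth limits SERPINA4 and SERPINA11, which had few reads in treated cells, and tunicamycin replicate 5 was the shallowest library. SERPINA3 is limited by its single count and by the overlap of its transcript end with another gene.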
